A study of Mus musculus with 24 samples.

Results

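Dermal papilla (DP) cells of mice at P24, early in the anagen of the second hair cycle, were compared between 3 controls and 3 mice in which Hdac1 and Hdac2 were both ablated in the DP (dM1/2). These 6 RNA-seq libraries, labelled as biological replicates, are the P24 members of a series of 24 libraries that also holds P20, P28 and P60, and all genes were described by function. Both groups carried the Corin-Cre allele, which is active in the DP after birth and came from an FVB line, together with floxed alleles from C57BL/6J lines. The dM1/2 genotype was Cor-cre/+; Hdac1 Flox/Flox; Hdac2 Flox/Flox. Controls were Cor-cre/+ with 1 floxed copy of either gene or of each, or were homozygous for one floxed gene and heterozygous for the other, and the labels do not give the genotype of each control library. The anagen mice were males, and DP cells labelled by YFP were sorted from the dissociated back skin of single mice. Which share of the sorted cells had lost both genes is not given in the labels.

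The DP, a mesenchymal cell cluster enclosed by the hair bulb, signals to the epithelium above it, and its cells divide little in the adult. It sends Wnt, FGF and BMP signals and their inhibitors, which set the start of anagen and the growth and colour of the hair. Hdac1 and Hdac2 remove acetyl groups from histone tails within the Sin3, NuRD and CoREST complexes, which repress genes, and they are widely known for their role in the cell cycle and in development.

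The 6 libraries held between 35469841 and 49331751 reads on genes, and a count of 0 leaves room for 3 reads of a gene, equal to 1.01 to 1.51 normalized reads (counting error only). All 16 DP markers were read in every group, so that the labelled cell type was present. Their summed level was 336769, 356660 and 414568 normalized reads in controls 1 to 3 and 212128, 241197 and 197104 in dM1/2 1 to 3, without overlap. Of the 16 DP markers, 7 fell, 1 (Bmp4) rose and 8 did not pass the test, with a median log2 fold change of -0.38. In such sorted bulk samples, fewer cells of a type and less RNA per cell cannot be told apart. The DP marker Sox2 is known to mark the papillae of some hair types and not of others, and its log2 fold change was -0.13 (adjusted p = 0.638, limma).

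**Figure D1:**
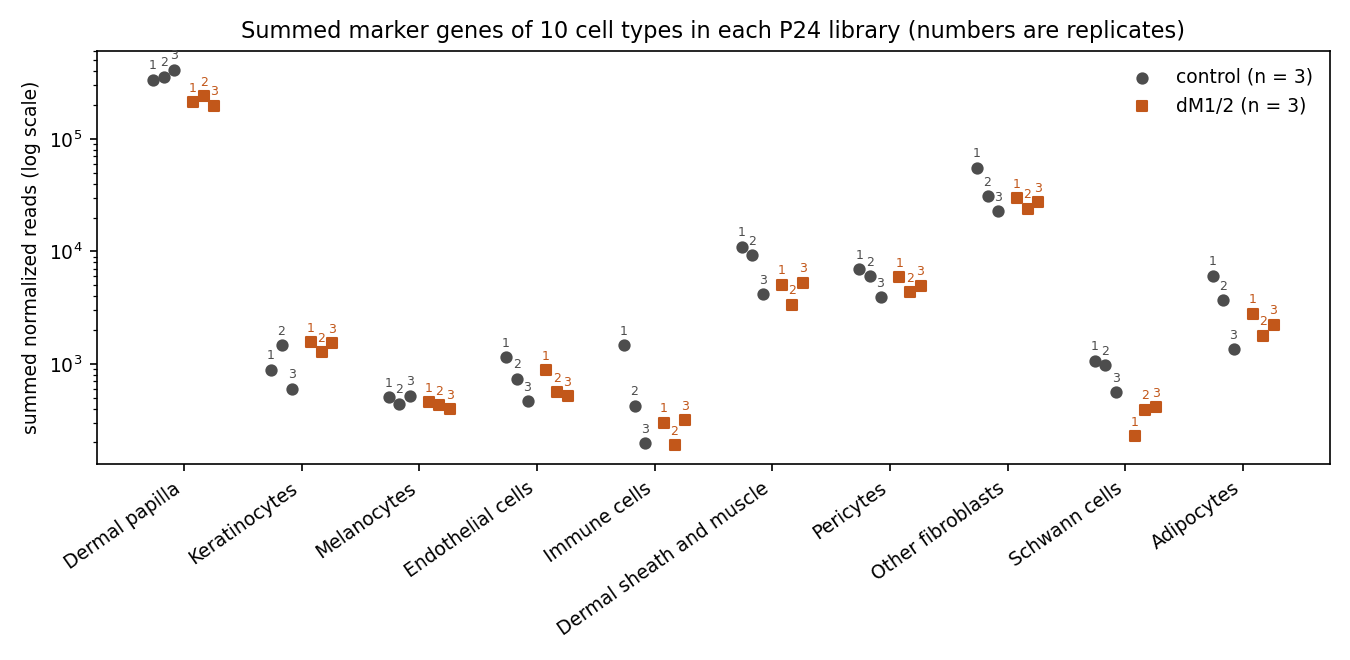
Summed normalized reads (log axis) of the markers of 10 cell types in each P24 library, with the replicate number at each point. The summed DP and Schwann cell markers lay lower in the 3 dM1/2 libraries than in the 3 controls, while those of the other 8 cell types overlapped between the groups.

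Markers of other cells were read as well, and of these Cd3e, a T cell gene, was the only one at 3 reads or fewer in every library. Control 1 had the highest sum for 7 of the 9 other cell types (endothelial, immune, dermal sheath and muscle, pericyte, other fibroblast, Schwann cell and adipocyte markers). In control 3 the same 7 sums were the lowest of the controls. The sums of Schwann cell markers were 1065, 967 and 556 in controls and 227, 389 and 411 in dM1/2, and 2 of 5 tested markers fell (S100b and Cdh19). Keratinocyte markers summed to 886, 1457 and 599 in controls and to 1561, 1267 and 1516 in dM1/2, with Krt1 and Epcam lower and Msx2 higher. Msx2, which the DP also expresses, gave 561, 608 and 388 of these sums in controls and 1316, 1000 and 1200 in dM1/2. The higher sums in dM1/2 are thus no measure of keratinocytes. Immune cell markers summed to 1470, 424 and 195 against 299, 188 and 313, with Cd68 lower in dM1/2. Dermal sheath and muscle markers summed to 11044, 9255 and 4147 against 5035, 3352 and 5284, with Myl9 and Itga8 lower. The sums of adipocyte markers were 6062, 3667 and 1343 against 2788, 1774 and 2226 (Plin1 lower), those of endothelial markers 1149, 739 and 467 against 879, 558 and 517 (Pecam1 lower), and those of pericyte markers 6908, 6037 and 3924 against 5888, 4353 and 4968 (Mcam higher). Markers of other fibroblasts summed to 55559, 30818 and 22672 against 29796, 23964 and 27525, those of melanocytes to 505, 442 and 519 against 457, 429 and 394, and no single marker of either was called. The part of these cells in the results that follow was not tested. With a single library left out, the calls of S100b, Cdh19, Cd68, Myl9, Itga8, Plin1, Pecam1, Mcam, Krt1 and Epcam were each lost at least once (adjusted p between 0.0508 and 0.155, limma).

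Hdac1 itself was lower in dM1/2, and Hdac2 was not. Hdac1 (ENSMUSG00000028800, chr4:129516104-129542713 of GRCm38) had 675, 668 and 668 normalized reads in the 3 controls and 209, 188 and 116 in the 3 dM1/2 libraries, and the lowest was dM1/2 3. The groups did not overlap (log2 fold change -2.01, standard error 0.22, adjusted p = 0.00167, limma; exact two-sided permutation p = 0.1, the smallest that 3 libraries against 3 can give). Hdac2 (ENSMUSG00000019777, chr10:36974544-37001889 of GRCm38) had 925, 1048 and 1069 normalized reads in controls and 1157, 1223 and 1282 in dM1/2 (log2 fold change 0.27, standard error 0.11, adjusted p = 0.117, limma; exact permutation p = 0.1). Each dM1/2 library thus lay above each control for Hdac2, and the difference did not pass the test across genes. Reads summed over a gene also count transcripts that are still made from a deleted allele, so the number of reads does not measure the loss of either protein.

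Among the 9 other classical deacetylases, Hdac4, a class IIa enzyme with little activity of its own, fell from 4141, 4619 and 6616 to 2439, 2566 and 1985 normalized reads (log2 fold change -1.12, standard error 0.20, adjusted p = 0.00685, limma). Hdac6, a mainly cytoplasmic tubulin deacetylase, rose from 405, 425 and 764 to 1124, 965 and 1169 (log2 fold change 1.09, standard error 0.24, adjusted p = 0.016, limma). Hdac3, the deacetylase of the NCoR complexes, had 884, 890.2 and 780.4 in controls and 859.9, 837 and 934 in dM1/2 (log2 fold change 0.04, adjusted p = 0.813, limma). None of the other 6 passed the test, and their log2 fold changes ran from -1.0 (Hdac9) to -0.0041 (Hdac7), with -0.47 for Hdac5, -0.07 for Hdac8, -0.31 for Hdac10 and -0.08 for Hdac11. Hdac6 was no longer called without control 2, dM1/2 1 or dM1/2 3 (adjusted p between 0.0542 and 0.062, limma).

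Of 41 subunits of the Sin3, NuRD, CoREST and NCoR complexes, 11 rose, 4 fell and 26 did not pass the test (median 0.13). The shares that rose and fell were 26.8% and 9.76%, beside 14.8% and 11.8% of all genes. Sap30, a Sin3 subunit, rose from 36.4, 41.7 and 16.3 to 130.1, 139 and 178 normalized reads, 4.73-fold. Rcor2, a CoREST scaffold, rose from 134, 142 and 209.6 to 484, 461 and 582, 3.15-fold. The largest fall was that of Tbl1xr1, an NCoR subunit, from 4890.4, 3606 and 8656 to 2040.1, 1871 and 1389 (log2 fold change -1.62, adjusted p = 0.00935, limma), followed by Phf21a, a CoREST subunit (log2 fold change -0.54, adjusted p = 0.019). Among Sin3, NuRD, CoREST and NCoR subunits, the calls numbered 9 without dM1/2 1. Of 13 histone acetyltransferases, Hat1, which acetylates newly made histone H4, was the only called rise (249, 254 and 366 against 577, 491 and 650.3). Kat6b (log2 fold change -1.46, adjusted p = 0.00525) and Ncoa3 (log2 fold change -0.66, adjusted p = 0.0363) were among 3 falls. Among histone acetyltransferases, the calls numbered 2 without control 2, dM1/2 2 or dM1/2 3. Phf21a was no longer called without control 2, dM1/2 1 or dM1/2 3 and Ncoa3 was no longer called without control 2, control 3, dM1/2 1, dM1/2 2 or dM1/2 3 (adjusted p between 0.0561 and 0.127, limma).

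Over all genes, 3735 of 14028 tested genes (26.6%) were called at P24 with limma at an adjusted p-value under 0.05, 2073 higher (14.8%) and 1662 lower (11.8%) in dM1/2. The median log2 fold change was -0.01. Of the calls, 1066 rises and 713 falls were at least 1 on the log2 scale. The groups did not overlap in 6279 of the tested genes and in 3732 of those called. Without control 2 the count was 2057, without dM1/2 1 it was 2357, and without dM1/2 3 it was 2365. The 47 functional lists shared some members, and their counts are read against the shares of all genes just given.

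**Figure D2:**
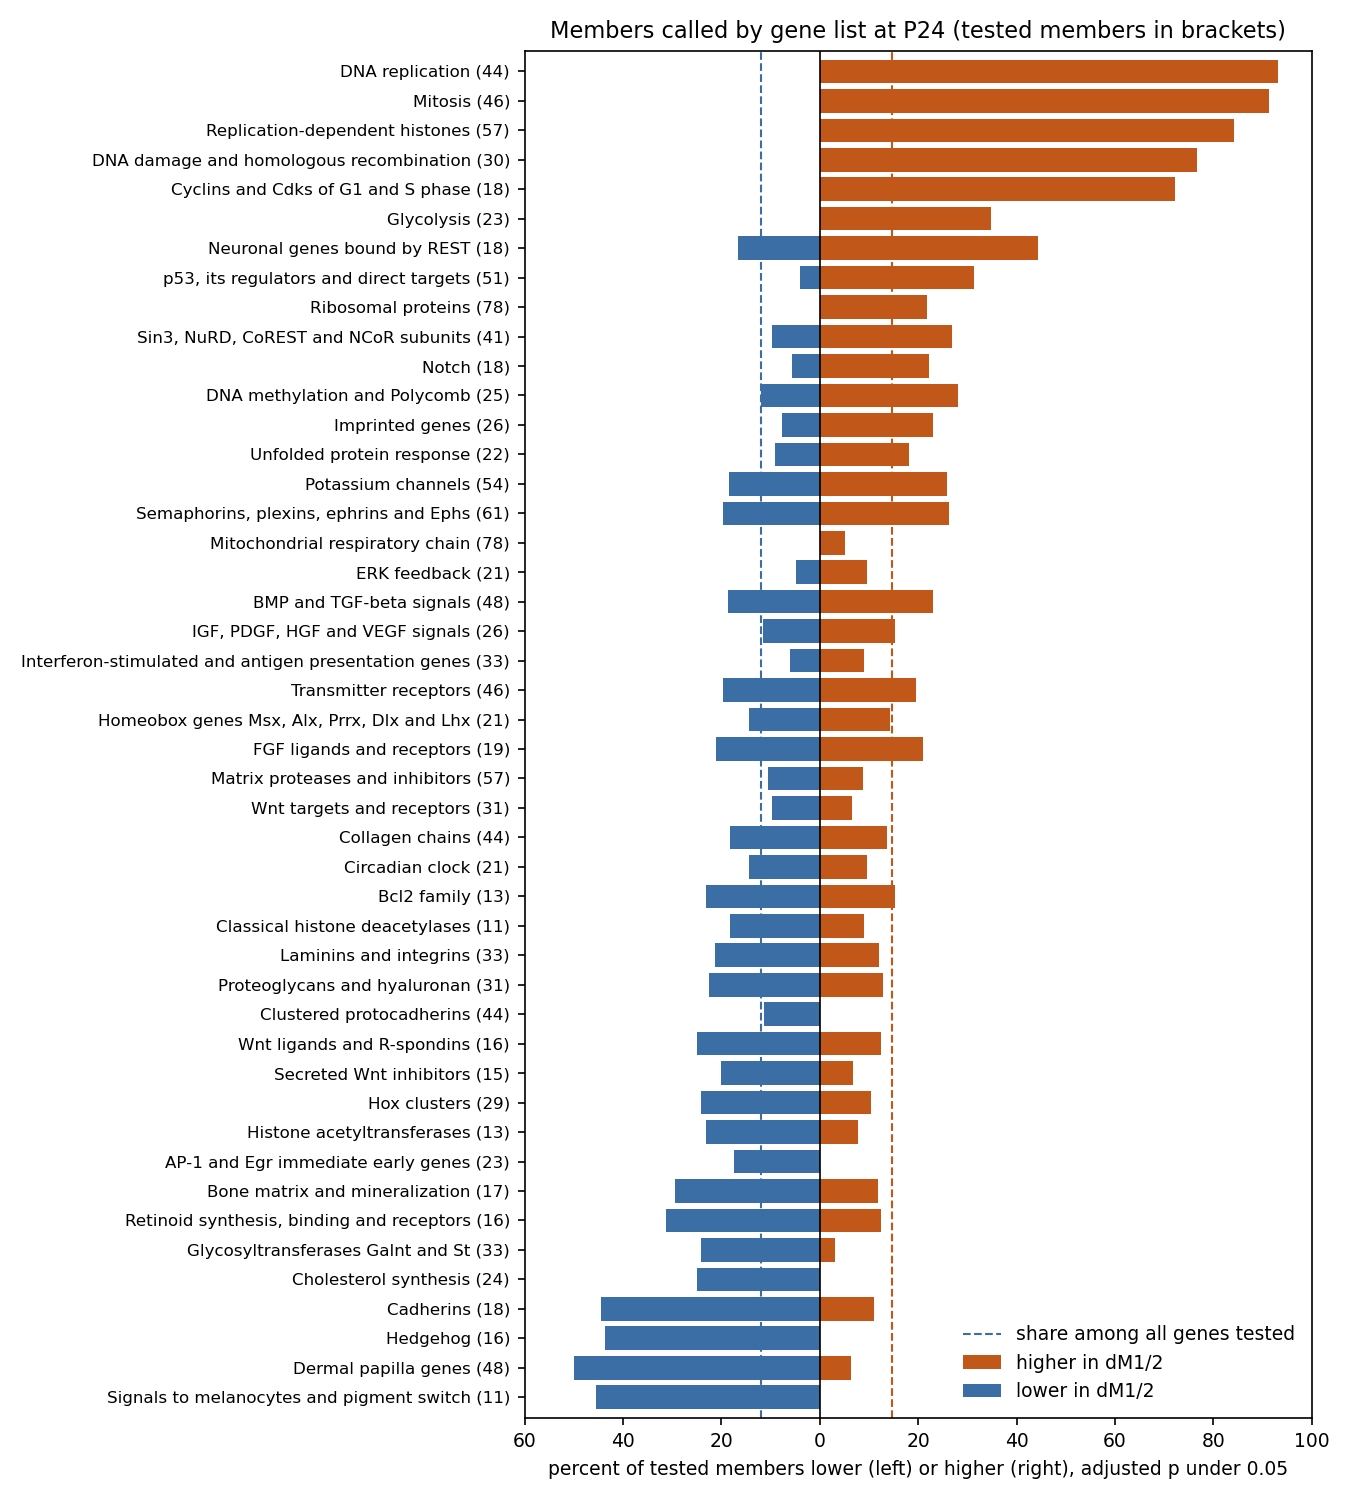
Percent of the tested members of each gene list with at least 10 tested members that were higher (bars to the right) or lower (bars to the left) in dM1/2 at an adjusted p-value under 0.05 (limma, 3 libraries against 3), with the same shares among all genes tested as dashed lines (14.8% and 11.8%). DNA replication, with 41 of 44 members higher, stands at the top, and DP genes and signals to melanocytes stand at the bottom.

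Among the lists, those of the cell cycle held the largest shares of rises. Of 18 cyclins, Cdks and their regulators of G1 and S phase, 13 rose and 0 fell, where 14.8% of all genes rose, and the list's median log2 fold change was 1.03. Ccnd1 (ENSMUSG00000070348, chr7:144929931-144939925 of GRCm38), the D-type cyclin that starts G1 progression, had 400.4, 554 and 166 normalized reads in controls and 2174, 3042 and 5539.8 in dM1/2 (log2 fold change 3.32, standard error 0.48, adjusted p = 0.00354, limma). The lowest dM1/2 library was several times above the highest control, and the rise was 9.61-fold in the means. Its partner Cdk6 rose from 173, 175 and 158 to 1125, 1053 and 805 (log2 fold change 2.54, standard error 0.16, adjusted p = 0.000378, limma). The 5 members that did not pass, named here after their values were seen, were Cdk4 (0.13), Ccnd3 (0.15), Rbl1 (0.19), E2f3 (0.25) and Ccnd2 (0.30), each with its log2 fold change.

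DNA replication genes rose in 41 of 44 cases and fell in 0 (median 1.12, called rises from 0.38 to 2.52 on the log2 scale). Ticrr, which licenses origins to fire, had 67.3, 54.2 and 148 normalized reads in controls and 547, 451 and 431 in dM1/2 (log2 fold change 2.52, standard error 0.35, adjusted p = 0.0031, limma). Rrm2, the subunit of ribonucleotide reductase that limits the making of deoxynucleotides, rose from 218, 210.4 and 365 to 1355, 1019 and 1673, 5.1-fold. Control 3 was the highest control for both genes and still lay below every dM1/2 library. The remaining 3 members, named after their values were seen, were Pold2 (0.34), Mcm4 (0.66) and Rpa3 (0.89). Of the 57 tested replication-dependent histone genes, which as a class, though not in every member, are transcribed in S phase, 48 rose and 0 fell (median 1.45). The linker histone gene Hist1h1t rose from 24, 18.6 and 19.1 to 201, 179 and 344 and Hist1h3g from 33.3, 25.1 and 58 to 237, 170.2 and 299. Many of these histone genes are near-identical copies, so that the values of single members are uncertain. Among replication-dependent histones, the calls numbered 26 without control 2, 24 without dM1/2 1 and 19 without dM1/2 3.

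Mitosis genes rose in 42 of 46 cases and fell in 0, with a median log2 fold change of 1.62, the highest of these lists. Cdc25c, the phosphatase that activates Cdk1, had 35.2, 24.1 and 88.9 normalized reads in controls and 203, 174 and 282 in dM1/2 (log2 fold change 2.32, standard error 0.46, adjusted p = 0.00995, limma). Aurkb, the kinase of the chromosomal passenger complex, rose from 94.4, 64.3 and 141 to 399.8, 338 and 507, 4.15-fold. For both genes, control 3 was the highest control and dM1/2 3 the highest dM1/2 library. The 4 members that did not pass, named after their values were seen, were Pttg1 (0.47), Ccnb2 (1.16), Hmmr (1.17) and Kif23 (1.31). Among mitosis genes, the calls numbered 26 without dM1/2 1 and 19 without dM1/2 3.

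**Figure D3:**
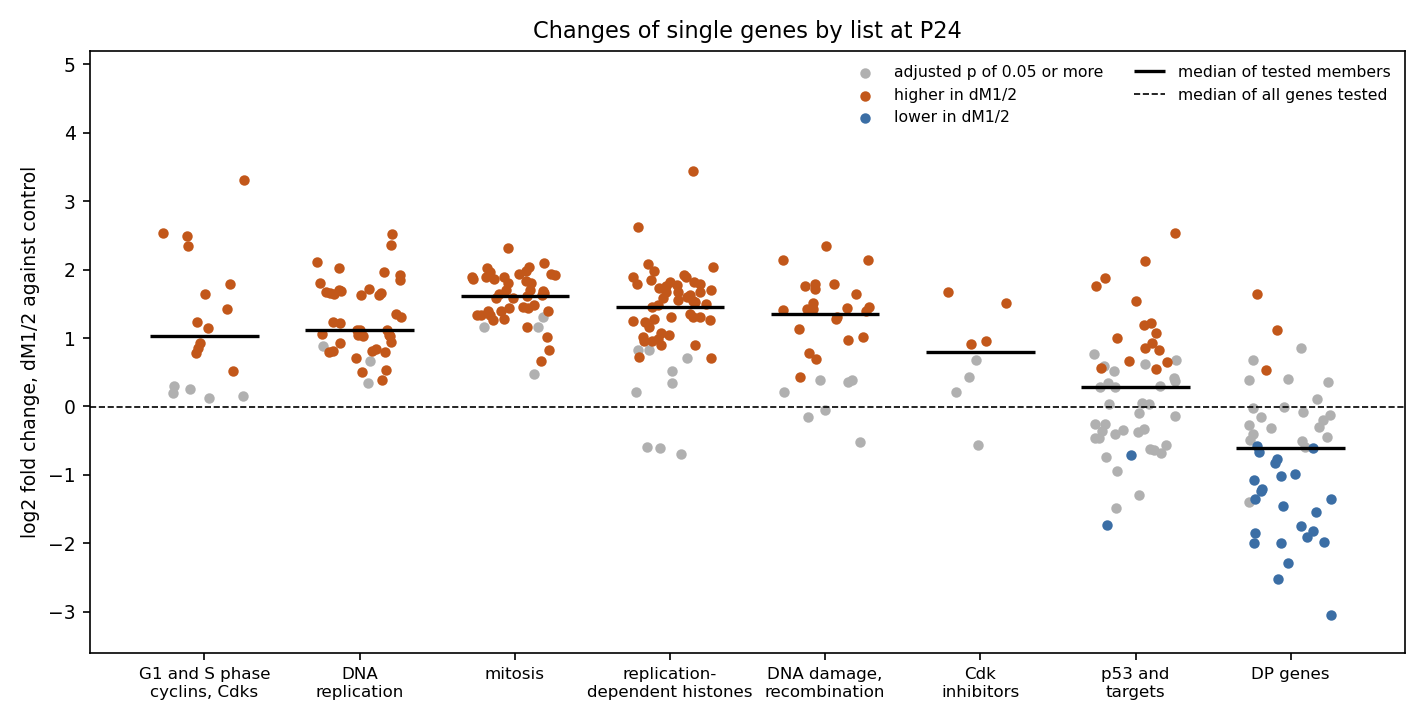
Log2 fold change of dM1/2 against control at P24 for every tested gene of 8 lists, coloured by whether it passed an adjusted p-value of 0.05 (limma), with the median of each list as a bar and that of all genes as a dashed line. Nearly all genes of replication, mitosis and the replication-dependent histones lie above 0, the p53 list is spread on both sides with a median of 0.29, and the DP list lies mostly below 0 with a median of -0.60.

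The promoters of the tested genes of these lists, called or not, were searched in the RefSeq promoter table (GRCm38.p6, 250 bases before to 50 bases after each start site) for letters known from cell-cycle promoters, on both strands and with overlapping matches kept. The motifs were the cell-cycle homology region (CHR, TTTGAA), the CCAAT box (CCAAT) and an E2F core (GCGGGAA). Of the 42 promoters of 39 matched mitosis genes, 31 held the CHR (73.8%), where 17.9% of all 32817 promoters did, and 28 held both CHR and CCAAT (66.7% against 6.94%). Of the 42 promoters of 36 matched DNA replication genes, 14 held the E2F core (33.3% against 4.6% of all) and 5 the CHR (11.9%). Of the 22 promoters of 21 matched genes of DNA damage and homologous recombination, 9 held the E2F core (40.9%) and 1 the CHR (4.55%). The 42 promoters of 33 DP genes held the CHR in 3 cases (7.14%) and the E2F core in 7 (16.7%, also above the 4.6% of all). A match describes the letters in this window only. As examples, the 2 largest rises of the mitosis list with CHR and CCAAT and the 2 largest of the replication list with the E2F core are shown in lower case with the matched letters in capitals.
Espl1 (chr15:102296043-102296342, + strand): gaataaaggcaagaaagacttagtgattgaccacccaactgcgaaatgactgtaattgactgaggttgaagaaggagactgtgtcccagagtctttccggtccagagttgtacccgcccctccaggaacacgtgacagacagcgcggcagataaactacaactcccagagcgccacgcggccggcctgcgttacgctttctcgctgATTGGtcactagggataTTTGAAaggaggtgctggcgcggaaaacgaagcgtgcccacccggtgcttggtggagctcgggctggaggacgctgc
Spc25 (chr2:69206164-69206463, - strand): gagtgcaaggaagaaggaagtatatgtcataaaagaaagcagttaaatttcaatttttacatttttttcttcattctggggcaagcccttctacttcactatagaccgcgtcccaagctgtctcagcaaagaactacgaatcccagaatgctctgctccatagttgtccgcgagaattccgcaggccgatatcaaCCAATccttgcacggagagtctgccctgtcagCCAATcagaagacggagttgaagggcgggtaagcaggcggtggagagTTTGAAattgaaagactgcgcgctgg
Uhrf1 (chr17:56303087-56303386, + strand): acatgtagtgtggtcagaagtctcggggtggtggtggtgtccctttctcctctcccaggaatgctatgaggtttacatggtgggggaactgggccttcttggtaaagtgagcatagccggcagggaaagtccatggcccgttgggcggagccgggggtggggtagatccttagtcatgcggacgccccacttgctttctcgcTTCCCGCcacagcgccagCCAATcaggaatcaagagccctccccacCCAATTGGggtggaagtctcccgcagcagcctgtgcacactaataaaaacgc
Cdc6 (chr11:98907901-98908200, + strand): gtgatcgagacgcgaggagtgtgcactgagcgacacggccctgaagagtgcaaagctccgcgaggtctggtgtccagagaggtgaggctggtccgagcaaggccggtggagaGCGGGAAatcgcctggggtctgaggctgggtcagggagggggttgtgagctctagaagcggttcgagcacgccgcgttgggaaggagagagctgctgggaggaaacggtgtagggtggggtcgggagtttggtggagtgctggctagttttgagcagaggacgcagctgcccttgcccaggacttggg
Espl1 encodes separase, which cuts cohesin at anaphase, and it rose from 122, 107 and 260.4 to 719, 490.1 and 680.4 normalized reads. Its CHR lies 27 bases before the start site and its CCAAT box 44 bases before it, on the opposite strand. Spc25, a subunit of the kinetochore complex Ndc80, rose from 58, 41.7 and 119 to 217, 233 and 365, and its promoter holds 1 CHR and 2 CCAAT boxes. Uhrf1, which brings Dnmt1 to replicating DNA, rose from 277, 237 and 491 to 1590.1, 1112 and 1493, and its promoter holds 1 E2F core and 3 CCAAT boxes, of which 2 overlap. Cdc6, which loads the replicative helicase, rose from 44.5, 58.2 and 94.1 to 350.0, 197 and 245, with 1 E2F core and no CHR or CCAAT box in the window.

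Genes of DNA damage signalling and homologous recombination rose in 23 of 30 cases and fell in 0 (median 1.35). Exo1, an exonuclease that resects broken ends, had 54.2, 23.6 and 81 normalized reads in controls and 316, 189 and 240.4 in dM1/2, and Brca1, which acts in repair by recombination, had 94.8, 74.3 and 175 and 592, 425 and 433. Both rose without overlap (log2 fold change 2.34, adjusted p = 0.00807 and log2 fold change 2.14, adjusted p = 0.00365, limma). Many genes of this list are themselves known to be transcribed in S phase.

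Among the 8 Cdk inhibitors, which brake the cycle, 4 rose and 0 fell. Cdkn2a, which encodes p16 and p19Arf, had 3.87, 8.03 and 5.56 normalized reads in controls and 12.7, 23.6 and 27.1 in dM1/2 (log2 fold change 1.68, adjusted p = 0.0407, limma). Cdkn3, a Cdk phosphatase that is itself known to peak in dividing cells, had 31.3, 14.6 and 32.2 and 76.3, 46.8 and 104 (log2 fold change 1.52, adjusted p = 0.0338). Among Cdk inhibitors, the calls numbered 2 without control 1, 1 without control 2 or dM1/2 1 and 0 without dM1/2 3. The other 2 rises were those of Cdkn2c (0.95) and Cdkn2d (0.92), and Cdkn1a, the p53 target p21, did not pass the test (log2 fold change 0.68, adjusted p = 0.13). These 3 genes were named after their values were seen. Cdkn2a was no longer called without any 1 of the 6 libraries and Cdkn3 was no longer called without control 2, dM1/2 1 or dM1/2 3 (adjusted p between 0.0528 and 0.125, limma).

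For p53, its regulators and its direct targets, 16 of 51 tested genes rose (31.4%) and 2 fell (3.92%), where 14.8% and 11.8% of all genes did, and the median log2 fold change was 0.29. Trp53 itself had 949, 1024 and 1283 normalized reads in controls and 1072, 1152 and 1073 in dM1/2 (log2 fold change 0.03, adjusted p = 0.901, limma), and its groups overlapped. The largest rise of the list was that of Psrc1 (41.8, 25.1 and 121 against 285, 244 and 379), which is also known as a spindle gene. Eda2r, a receptor of the TNF family, followed (46.8, 22.6 and 78.2 against 173, 162 and 258). The falls were those of Plk2 (log2 fold change -1.73, adjusted p = 0.00395) and Polk, a translesion polymerase (log2 fold change -0.71, adjusted p = 0.0205). Among p53, its regulators and direct targets, the calls numbered 11 without dM1/2 1 and 8 without dM1/2 3. In the Bcl2 family, which controls the mitochondrial step of apoptosis, 2 of 13 tested members rose and 3 fell, shares that stand beside 14.8% and 11.8% of all genes. Bbc3 and Bax are known to promote death, and Bcl2l1, Bcl2 and Bcl2l2 to oppose it. Bbc3 (Puma) rose from 105, 86.9 and 100.0 to 220.3, 190.4 and 262 and Bax from 351, 363 and 355 to 483, 452 and 650.3. Bcl2l1 (Bcl-xL) fell from 1026, 765 and 1088 to 409, 324 and 387 and Bcl2 from 5359, 4662 and 3999.8 to 2392, 3088 and 2283, and Bcl2l2, named after its value was seen, also fell (-0.58). The other 8 tested members did not pass. Among Bcl2 family members, the calls numbered 3 without control 2. Psrc1 was no longer called without dM1/2 3, Eda2r was no longer called without dM1/2 3, Polk was no longer called without control 1, control 2, dM1/2 1 or dM1/2 2 and Bax was no longer called without control 1, control 2, control 3, dM1/2 1 or dM1/2 3 (adjusted p between 0.0518 and 0.106, limma).

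**Figure D4:**
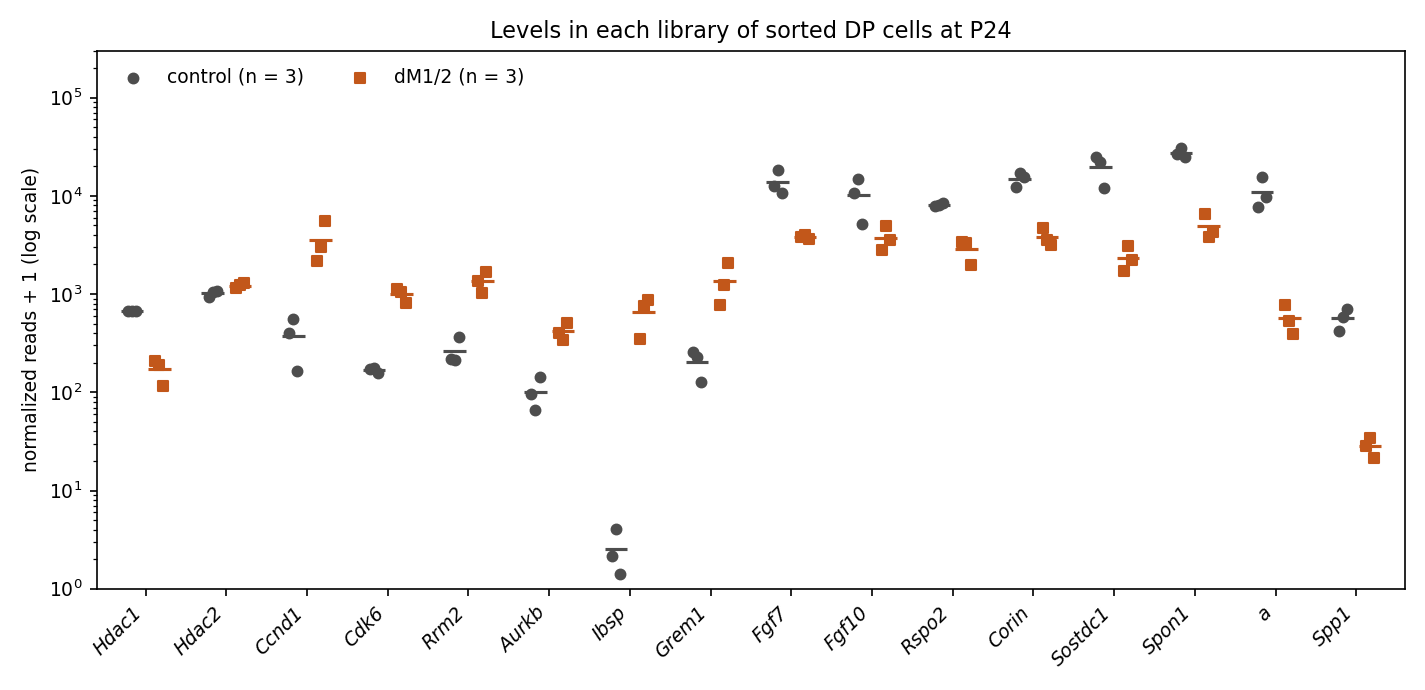
Normalized reads + 1 (log axis) of 16 genes in each P24 library, with the group mean as a bar. The groups did not overlap for any of these genes, most of which were chosen by a rule that asks for this. Among all genes tested, 44.8% did not overlap. The difference of Hdac2 did not pass the test across genes, and Ibsp was at 1.16, 3.01 and 0.397 normalized reads in the controls.

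Among the lists, that of DP genes held the largest share of falls. Of 48 genes known for expression or function in the DP, 24 fell, 3 rose and 21 did not pass the test, where 11.8% of all genes fell, and the median log2 fold change was -0.60. Sostdc1, which inhibits both BMP and Wnt signals, fell from 24887, 22081 and 12148 to 1699, 3079 and 2230.0 normalized reads (log2 fold change -3.05, standard error 0.31, adjusted p = 0.00143, limma). Spon1, a matrix protein, fell from 26446, 30826 and 25067 to 6529.9, 3841 and 4331 (log2 fold change -2.52, standard error 0.22, adjusted p = 0.00106, limma). Corin, the protease whose promoter drives the Cre of both groups, fell from 12267, 17134 and 15411 to 4754, 3537 and 3138, 3.92-fold. The 3 rises were those of Nog, a BMP inhibitor (320.0, 431 and 279 against 931, 927 and 1357), Foxd1, a forkhead factor (152, 94.9 and 202 against 230.4, 299 and 438), and Bmp4 (4075, 3601 and 3111 against 5139, 4741 and 5749). Sox18, Trps1, Alx4, Lef1 and Prdm1, DP transcription factors named after their values were seen, did not pass the test (log2 fold changes -0.08, -0.02, -0.26, 0.36 and 0.86). Among DP genes, the calls numbered 17 without dM1/2 3. Foxd1 was no longer called without control 1, control 2, dM1/2 2 or dM1/2 3 and Bmp4 was no longer called without control 2, control 3, dM1/2 1, dM1/2 2 or dM1/2 3 (adjusted p between 0.0523 and 0.128, limma).

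Fgf7 and Fgf10, growth signals to the epithelium, were among the genes that fell, while their list moved in both directions. Of 19 tested FGF ligands and receptors, 4 rose and 4 fell, with a median log2 fold change of -0.04. Each share was 21.05%, beside 14.8% and 11.8% of all genes. Fgf7, the keratinocyte growth factor, had 12541, 18377 and 10568 normalized reads in controls and 3795, 4004 and 3645 in dM1/2 (log2 fold change -1.82, standard error 0.21, adjusted p = 0.00184, limma). Fgf10, which binds the same epithelial receptor, had 10602, 15009.6 and 5129.6 and 2820.1, 4917 and 3526 (log2 fold change -1.35, standard error 0.39, adjusted p = 0.0378, limma), and the lowest control lay just above the highest dM1/2 library. Fgf3 had no read in the 3 controls and 37.8, 24.4 and 35.8 normalized reads in dM1/2, at least 25.4-fold higher against a limit of 3 reads per control library. The receptor Fgfr3 rose from 711, 1159 and 1098 to 2535, 1887 and 2328 (log2 fold change 1.21, adjusted p = 0.00641). Among 21 tested genes of ERK feedback, which FGF signals are known to induce, 2 rose and 1 fell. These shares, 9.52% and 4.76%, were below those of all genes. The phosphatase genes Dusp9 (11.6, 14.1 and 18.7 against 101, 106 and 156) and Dusp6 (551, 619.5 and 456 against 949, 1469.7 and 1186) rose, and Dusp5 fell (log2 fold change -0.71, adjusted p = 0.0459). Among ERK feedback genes, the calls numbered 6 without control 3. Fgf10 was no longer called without control 1, control 2, dM1/2 1, dM1/2 2 or dM1/2 3 and Dusp5 was no longer called without control 2, control 3, dM1/2 1, dM1/2 2 or dM1/2 3 (adjusted p between 0.0516 and 0.135, limma).

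Wnt ligands and R-spondins split by member. R-spondins raise the response of cells to Wnt by keeping its receptors at the surface, and of the 4 only Rspo2 passed the test, with a fall from 7873, 8123 and 8405 to 3373, 3283 and 1962 normalized reads (log2 fold change -1.54, standard error 0.21, adjusted p = 0.00307, limma). Rspo1 had 3456, 3859 and 3886 in controls and 4031, 4055 and 4038 in dM1/2, Rspo3 6684, 8959 and 6821 and 4536, 6188 and 5764, and Rspo4 3273, 7363 and 781 and 815, 2663 and 2516, with adjusted p-values of 0.481, 0.107 and 0.631. Rspo4 varied by almost an order of magnitude between the controls, and its groups overlapped. Wnt6 rose from 205, 159 and 115 to 709, 626 and 1006 (log2 fold change 2.29, standard error 0.26, adjusted p = 0.00175, limma) and Wnt4 from 133, 227 and 392 to 519, 875 and 1092 (log2 fold change 1.79, adjusted p = 0.0178). Wnt5a, a mainly noncanonical ligand, fell from 17609.6, 12479 and 21966 to 10855, 8142 and 6918 (log2 fold change -0.99, adjusted p = 0.0265). In all, 2 of the 16 tested ligands and R-spondins rose and 4 fell (12.5% and 25%, beside 14.8% and 11.8% of all genes). Among Wnt ligands and R-spondins, the calls numbered 2 without dM1/2 2 or dM1/2 3. Wnt4 was no longer called without control 2, dM1/2 2 or dM1/2 3 and Wnt5a was no longer called without control 1, dM1/2 2 or dM1/2 3 (adjusted p between 0.0542 and 0.0913, limma).

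Of 15 tested secreted Wnt inhibitors, 1 rose and 3 fell (6.67% and 20%, beside 14.8% and 11.8% of all genes). Dkk3 rose from 1185, 1174 and 797 to 1813, 1679.9 and 2206, and Frzb fell from 2238, 2990.3 and 2321 to 1644, 1652 and 1418. Among secreted Wnt inhibitors, the calls numbered 2 without control 2 or dM1/2 3 and 7 without control 3. Of 31 tested Wnt receptors and target genes, 2 rose (Ccnd1 and Tcf7) and 3 fell. The transcription factor Tcf7 had 324, 447 and 337 normalized reads in controls and 643, 607 and 784 in dM1/2 (log2 fold change 0.88, adjusted p = 0.00944, limma). Axin2, the target most used as a readout of canonical Wnt signalling, had 947, 1537 and 631 and 979, 1423 and 1360.5, with overlapping groups (log2 fold change 0.35, adjusted p = 0.451, limma). The inhibitor Nkd2 fell from 4315, 4182 and 2784 to 2097, 2321 and 1917, and the Wnt5a receptor Ror1 from 352, 341 and 249 to 179.5, 185 and 194. Among Wnt targets and receptors, the calls numbered 3 without control 2, dM1/2 1, dM1/2 2 or dM1/2 3 and 8 without control 3. Dkk3 was no longer called without dM1/2 3, Frzb was no longer called without control 2 or dM1/2 3, Nkd2 was no longer called without control 1, control 2, dM1/2 1 or dM1/2 3 and Ror1 was no longer called without control 1, control 2, dM1/2 1 or dM1/2 2 (adjusted p between 0.0503 and 0.0775, limma).

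BMP and TGF-beta signals changed in both directions, with 11 rises and 9 falls among 48 tested genes and a median log2 fold change of -0.05. These shares, 22.9% and 18.75%, stand beside 14.8% and 11.8% of all genes. The BMP inhibitors moved apart from each other. Grem1 rose from 257, 229.9 and 127 to 765, 1248 and 2081 normalized reads (log2 fold change 2.68, standard error 0.39, adjusted p = 0.00364, limma), and Chrdl2 from 4.26, 1.51 and 11.5 to 85.8, 57.1 and 86.9 (log2 fold change 3.80, standard error 0.59, adjusted p = 0.00448, limma). Nog rose and Sostdc1 fell, as given with the DP genes. The ligand Bmp6 fell from 4832, 5839 and 6103 to 2537, 1688 and 1969.6 (log2 fold change -1.45, adjusted p = 0.0021), in contrast to Bmp4.

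Hedgehog genes gave 7 falls and 0 rises among 16 tested, where 11.8% of all genes fell. Scube3, a secreted protein that helps to release and present Hedgehog and other ligands, fell from 33855, 35857 and 46036 to 12389, 11356 and 7498 normalized reads (log2 fold change -1.91, standard error 0.24, adjusted p = 0.00239, limma). Gli2, the main activator among the Gli factors, fell from 3205, 3709.7 and 5385 to 2789.6, 1741 and 1384 (log2 fold change -1.08, adjusted p = 0.0292). Among Hedgehog genes, the calls numbered 4 without control 1 or dM1/2 1, 2 without control 2, 3 without dM1/2 2 and 1 without dM1/2 3. In the Notch pathway, 4 of 18 tested genes rose and 1 fell. Hey2, a Notch target and DP marker, fell from 4301, 4004 and 4524 to 2370.1, 2017 and 1954 (log2 fold change -1.02, standard error 0.12, adjusted p = 0.0021, limma). Hes1, another Notch target, rose from 604, 467 and 309 to 682, 949 and 1051, and the glycosyltransferase Lfng from 230.2, 104 and 216 to 427, 327 and 339.5. Among Notch genes, the calls numbered 2 without control 2 or dM1/2 3, 8 without control 3 and 3 without dM1/2 2. Gli2 was no longer called without control 2, control 3, dM1/2 2 or dM1/2 3, Hes1 was no longer called without control 2, dM1/2 2 or dM1/2 3 and Lfng was no longer called without control 2, dM1/2 1, dM1/2 2 or dM1/2 3 (adjusted p between 0.0507 and 0.118, limma).

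The growth factor Igf2 rose from 595, 436 and 393 to 2129, 4970.0 and 7679 normalized reads (log2 fold change 3.21, standard error 0.43, adjusted p = 0.00274, limma), and the dM1/2 libraries differed from each other by more than 3 times. Igfbp5, a binding protein of the IGFs and an abundant transcript of these cells, fell from 83072, 117490.0 and 82146 to 25021, 29390.3 and 31736 (log2 fold change -1.70, standard error 0.26, adjusted p = 0.00401, limma). Hgf fell from 103, 114 and 100.4 to 45.1, 43.8 and 30.4, and the VEGF receptor Flt1 rose from 64.2, 56.7 and 77.4 to 386, 194 and 184, the latter beside endothelial markers whose sums overlapped between groups. In all, 4 of 26 tested genes of the IGF, PDGF, HGF and VEGF families rose and 3 fell. These shares, 15.4% and 11.5%, were close to the 14.8% and 11.8% of all genes. Among IGF, PDGF, HGF and VEGF signals, the calls numbered 12 without control 3.

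Of 11 tested signals to melanocytes, 5 fell and 0 rose. Nrg1, a ligand of ErbB receptors, fell from 31.3, 62.8 and 97.7 to 14.2, 11.4 and 11.2 normalized reads (log2 fold change -2.16, adjusted p = 0.0115, limma), and Corin, which is also known to modify coat colour, was among the falls. The agouti gene, listed under its symbol a and outside the counted list, encodes the signal that switches melanocytes to yellow pigment. It lies at chr2:154791402-155051012 of GRCm38 (ENSMUSG00000027596). It fell from 7685, 15607 and 9680.0 to 777, 529 and 396 (log2 fold change -4.26, standard error 0.32, adjusted p = 0.000681, limma), 19.4-fold in the means. Summed melanocyte markers overlapped between the groups, as given above.

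The 10 largest rises with separated groups, outside predicted genes and pseudogenes, were picked by log2 fold change. This choice favours genes that are low in controls, and some of them passed the filter through dM1/2 alone. Their control means ran from 0 (Fgf3 and Prlhr) to 43.5 (Grin2a) normalized reads. Ibsp (ENSMUSG00000029306, chr5:104299171-104311469 of GRCm38), a bone matrix protein, had 1.16, 3.01 and 0.397 normalized reads in controls and 346, 758 and 860.3 in dM1/2 (log2 fold change 8.05, standard error 0.50, adjusted p = 0.000378, limma). Dclk3, a kinase of the doublecortin family, had 2.32, 1.51 and 2.78 and 139, 190.4 and 235, and Necab2, a neuronal calcium-binding protein, had 5.8, 7.53 and 6.35 and 263, 414 and 575. Dio3, the deiodinase that inactivates thyroid hormone and is imprinted, rose from 40.2, 28.1 and 5.56 to 625, 1673 and 1368. All of these were separated by at least an order of magnitude between the lowest dM1/2 library and the highest control. Meioc, a gene known from meiosis, rose from 6.58, 26.1 and 16.7 to 479, 471 and 701. Grin2a, an NMDA receptor subunit, rose from 17.8, 17.1 and 95.7 to 1621, 1448 and 963, and Cdh8, a cadherin, from 5.8, 2.01 and 3.18 to 125, 196 and 195. Prlhr, a peptide receptor, had no read in controls and 4.36, 51.4 and 107 normalized reads in dM1/2, at least 42.2-fold higher, with dM1/2 1 far below the other dM1/2 libraries. The histamine receptor gene Hrh3 had 0, 0 and 2.78 in controls and 18.5, 79.2 and 63.9 in dM1/2. With Fgf3, these genes had log2 fold changes between 4.91 and 8.05. Prlhr was no longer called without dM1/2 2 or dM1/2 3 (adjusted p between 0.062 and 0.064, limma).

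Among the 10 largest falls with separated groups, again outside predicted genes and pseudogenes, Kcnk10, a potassium channel, had 111, 101 and 56.8 normalized reads in controls and 0.363, 6.09 and 3.04 in dM1/2. Plekhd1 had 79.7, 93.4 and 99.6 and 6.91, 3.81 and 1.01. Htr3a, a serotonin-gated channel, had 12.8, 34.1 and 29.4 in controls and 0, 0 and 0.676 in dM1/2, where all libraries held 3 reads or fewer, at least 23.5-fold lower. These 3 genes were close to the limit of detection in dM1/2. Spp1, the secreted matrix protein osteopontin, fell from 419, 585 and 703 to 27.6, 33.5 and 20.6 (log2 fold change -4.33, standard error 0.26, adjusted p = 0.000378, limma). Galnt13, which starts O-glycosylation, fell from 665, 535 and 556 to 62.5, 26.3 and 16.6. Crhr2, a receptor of corticotropin-releasing hormone and urocortins, fell from 366, 151 and 468 to 36.3, 21.7 and 8.12. The synaptic adhesion gene Lrfn2 fell from 262, 241 and 137 to 10.9, 16 and 12.5, and Brinp3 from 644, 653 and 293 to 26.2, 48 and 31.5. Csn1s1, a milk casein, fell from 273, 72.3 and 54.4 to 6.91, 2.29 and 9.13, with control 1 far above the other controls. With the agouti gene, these falls ran from -3.83 to -4.68 on the log2 scale.

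Genes of bone matrix and mineralization included Ibsp and Spp1, with 2 of 17 tested genes higher and 5 lower. Alpl, the alkaline phosphatase used to stain the DP, fell from 13129.7, 12426 and 18252 to 8123, 5366 and 5269 (log2 fold change -1.23, adjusted p = 0.00839, limma). Among 44 collagen chains, 6 rose and 8 fell (13.6% and 18.2%, beside 14.8% and 11.8% of all genes). Col26a1 rose from 933, 1158 and 693 to 3855, 4513 and 7232, while the membrane collagen Col23a1 fell from 18748, 21196 and 21537 to 9765, 8583 and 7489 and Col16a1 from 14299, 16571 and 12985 to 8765, 5119 and 5944. Among collagen chains, the calls numbered 7 without control 2, 8 without dM1/2 1 and 9 without dM1/2 2 or dM1/2 3. Of the laminin chains, which form basement membranes, Lama1 rose from 8.12, 4.52 and 34.5 to 175, 487 and 536 and Lama3 from 56.1, 70.8 and 62.7 to 347, 668 and 597, and the largest falls were those of the integrins Itgb8 (log2 fold change -1.83, adjusted p = 0.0247) and Itgb4 (log2 fold change -1.51, adjusted p = 0.017). Of 33 tested laminins and integrins, 4 rose and 7 fell. Among laminins and integrins, the calls numbered 6 without control 2 or dM1/2 1 and 7 without dM1/2 2 or dM1/2 3. Itgb8 was no longer called without control 2, dM1/2 1 or dM1/2 3 and Itgb4 was no longer called without control 2 (adjusted p between 0.0529 and 0.0841, limma).

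Among 31 tested proteoglycans and hyaluronan genes, 4 rose and 7 fell. Has2, which makes hyaluronan, rose from 456, 519.6 and 286 to 1321, 2224 and 1974 normalized reads (log2 fold change 2.14, standard error 0.27, adjusted p = 0.00234, limma), and the basement membrane proteoglycan Agrn from 4588, 4916 and 5330.4 to 11978, 13487 and 15548 (log2 fold change 1.46, standard error 0.15, adjusted p = 0.00141, limma). Gpc5 fell from 101, 127 and 94.1 to 37.4, 4.95 and 30.4 and Fmod from 1071, 2573 and 893 to 672, 519 and 459.6. Among proteoglycans and hyaluronan genes, the calls numbered 7 without control 1 or dM1/2 2 and 6 without control 2 or dM1/2 3. Of 57 tested matrix proteases and inhibitors, 5 rose and 6 fell (8.77% and 10.5%, below the 14.8% and 11.8% of all genes). The membrane metalloproteases Mmp17 (720.0, 578 and 877 against 2219.7, 1624 and 2336) and Mmp24 (9.29, 10 and 11.5 against 36.7, 49.5 and 53.1) rose, and the prohormone convertase Pcsk2 (log2 fold change -1.14, adjusted p = 0.00626) and Adam22 (log2 fold change -1.02, adjusted p = 0.0143) fell. Among matrix proteases and inhibitors, the calls numbered 7 without control 2 or dM1/2 3 and 20 without control 3. Gpc5 was no longer called without control 1, control 2 or dM1/2 3, Fmod was no longer called without dM1/2 1, dM1/2 2 or dM1/2 3 and Adam22 was no longer called without dM1/2 3 (adjusted p between 0.0505 and 0.123, limma).

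Cadherins, which join like cells, gave 8 falls and 2 rises among 18 tested genes, with a median log2 fold change of -1.16. Cdh22 rose from 186, 159 and 394 to 1480.4, 953 and 1274 and Cdh8 as given above, while Cdh23 fell from 274, 419 and 356 to 41.8, 125 and 63.6. Cdh19, which is also a Schwann cell marker, fell from 108, 135 and 44.1 to 13.1, 30.8 and 22, beside summed Schwann cell markers that were lower in all 3 dM1/2 libraries, and the part of these cells was not tested. Of 44 tested clustered protocadherins, 5 fell and 0 rose, led by Pcdhac2 (65.4, 59.7 and 98.1 against 12.4, 14.1 and 6.43) and Pcdhga11 (330.4, 349.9 and 403 against 185, 189 and 92.3). Protocadherins of a cluster share exons, which makes the values of single members uncertain. Among clustered protocadherins, the calls numbered 3 without dM1/2 1 or dM1/2 3 and 9 without dM1/2 2. Cdh19 was no longer called without control 1, control 2, dM1/2 1 or dM1/2 3 (adjusted p between 0.0621 and 0.0805, limma).

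Genes best known from neurons were called in both directions. Of 54 tested potassium channels 14 rose and 10 fell (25.9% and 18.5%), and of 46 tested transmitter receptors 9 rose and 9 fell (19.6% each). Of 61 tested guidance genes (semaphorins, plexins, ephrins and Ephs) 16 rose and 12 fell (26.2% and 19.7%). Among all genes, 14.8% rose and 11.8% fell, so calls in both directions are not particular to these lists. Of the 92 listed potassium channels and 99 listed transmitter receptors, the others were too low to be tested. Tested members may have passed the filter through the group in which they were high, which raises the called shares. No p-value was computed for these shares. The channel gene Kcna6 rose from 52.2, 45.2 and 96.1 to 506, 508 and 449 normalized reads, and Kcnip1, a channel-interacting protein, from 1.55, 2.51 and 1.19 to 16, 60.9 and 69.7. Kcnj3 fell from 191, 139.6 and 587 to 53.8, 31.6 and 12.9. Receptor subunits of a single family moved apart, since Grin2a rose while Grin2b fell from 107, 92.9 and 160.0 to 12.4, 17.1 and 1.69 and Grin1 from 61.5, 61.8 and 92.9 to 16, 17.9 and 12.5. The muscarinic receptor Chrm4 rose from 2.32, 6.53 and 12.7 to 66.9, 144 and 227. Efna3, an ephrin ligand, rose from 61.9, 68.3 and 50 to 738, 885 and 1151 (log2 fold change 3.91, standard error 0.21, adjusted p = 0.000378, limma), and the receptor Epha10 from 1.55, 2.01 and 9.53 to 30.2, 41.1 and 41.6, while the receptor Epha6 fell from 62.7, 105 and 23.4 to 4.72, 5.33 and 2.03 and Sema4f from 20.5, 39.2 and 33.3 to 9.81, 1.14 and 6.09. Of 40 neuronal genes known to be bound by the repressor REST, which recruits Hdac1 and Hdac2 through Sin3 and CoREST, 18 were tested, and 8 of these rose and 3 fell. Cacna1b, a calcium channel, rose from 133, 198 and 279 to 1242, 1736 and 1385, and Unc13a, which primes synaptic vesicles, from 96, 128 and 144 to 695, 586 and 565. Syp, the vesicle protein synaptophysin, fell from 55.3, 87.4 and 45.7 to 23.6, 12.6 and 11.2. The other 22 genes of the list were too low to be tested, and those tested may have passed the filter through the group in which they were high. Among neuronal genes bound by REST, the calls numbered 7 without control 2, dM1/2 1 or dM1/2 3. Sema4f was no longer called without control 2, control 3 or dM1/2 3 and Syp was no longer called without control 2 (adjusted p between 0.054 and 0.111, limma).

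The effect at P24 was compared with the effect at P28, mid-anagen, in mice of the same sex and at similar depth, with no library shared. The difference between the effects passed the test with limma in 100 of 14139 genes (0.707%). The log2 effect at P24 minus that at P28 was positive in 36 of them and negative in 64. Either sign can come from the controls as well as from dM1/2. By limma, 1680 genes had an unadjusted p-value under 0.05. In 90 of the 100 genes the effect at P24 was the smaller in size. Leaving out single libraries gave between 8 genes (without P28 dM1/2 2) and 167 (without P28 control 2), with 20 without P24 control 1, 14 without P24 control 3, 10 without P24 dM1/2 1, 13 without P24 dM1/2 2, 23 without P24 dM1/2 3, 15 without P28 dM1/2 1 and 12 without P28 dM1/2 3. At P28, Hdac1 had 214, 529 and 105 normalized reads in controls and 190, 149 and 126 in dM1/2 (log2 fold change -0.58), with overlapping groups. The library labelled P28 control 3 had fewer reads of Hdac1 than every P28 dM1/2 library, and without it the count of genes was 86.

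**Figure D5:**
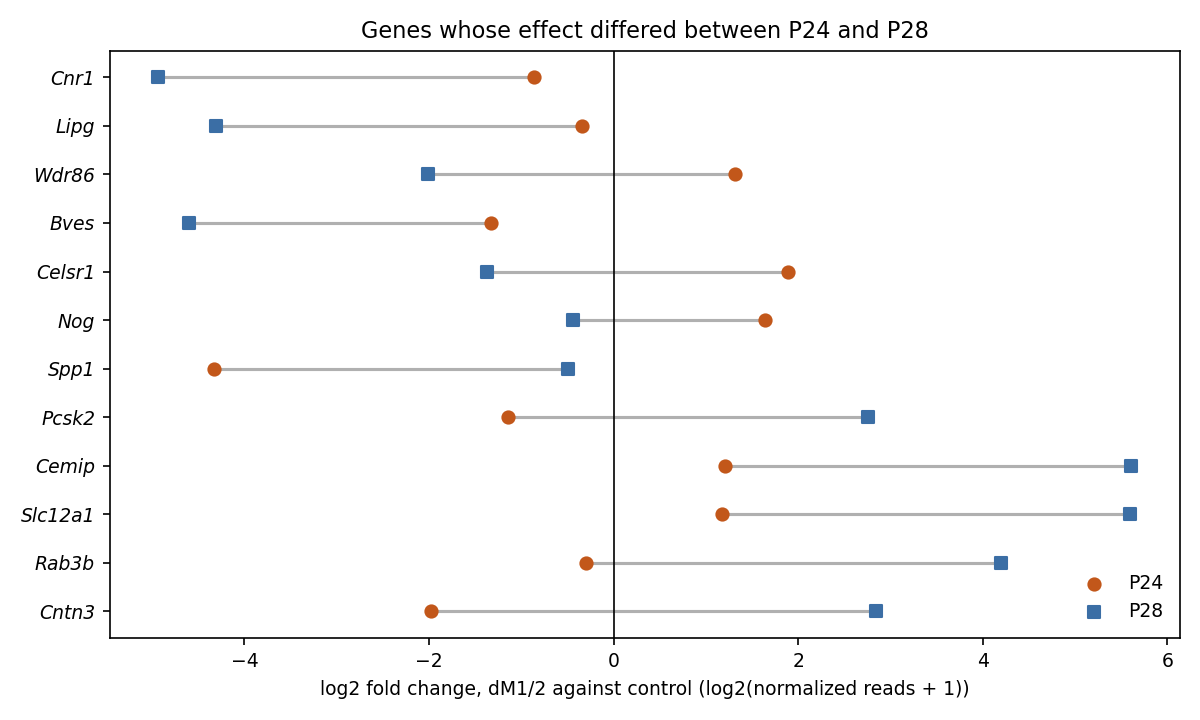
Log2 fold change of dM1/2 against control at P24 (circles) and P28 (squares) for 12 genes whose effect differed between the ages (limma, 12 libraries). Wdr86, Celsr1, Nog, Pcsk2, Cntn3 and Rab3b were higher in dM1/2 at one age and lower at the other, by the sign of the means.

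Of the 48 DP genes, 4 differed in effect between the ages (Nog and, named after their values were seen, Cntfr, Sema6a and Cyp26b1), where 0.707% of all genes did. Nog (ENSMUSG00000048616, chr11:89300638-89302332 of GRCm38) had 320.0, 431 and 279 normalized reads in P24 controls and 931, 927 and 1357 in P24 dM1/2, and 978, 633 and 1039.9 in P28 controls and 708, 559.6 and 647 in P28 dM1/2, so that the P28 controls lay above all P24 controls and the P28 dM1/2 libraries below all P24 dM1/2 libraries (difference of the log2 effects 2.08, standard error 0.32, adjusted p = 0.0298, limma). Spp1 had 65.2, 35.9 and 18.2 in P28 controls, far below the P24 controls, and 12.4, 42.9 and 27.7 in P28 dM1/2 (difference of the log2 effects -3.83, standard error 0.70, adjusted p = 0.0388, limma). Wdr86, a gene of little known function, was higher in dM1/2 at P24 (247, 169 and 129.8 against 357, 478 and 498) and lower at P28 (1469, 1720.2 and 2818 against 486, 531 and 415), and the difference was called under 15 of 16 alternatives (difference of the log2 effects 3.33, standard error 0.38, adjusted p = 0.00919, limma). Slc12a1, a sodium, potassium and chloride transporter, had 19.3, 25.1 and 49.6 and 68.3, 70.1 and 61.2 at P24, a rise of 1.17 on the log2 scale, and 27, 25 and 38.7 and 1504, 2519 and 859 at P28 (difference of the log2 effects -4.43, standard error 0.56, adjusted p = 0.0126, limma), with the difference also called under 15 of 16. The calls of Nog and Spp1 were each kept under 7 of 16 alternatives, with adjusted p-values of up to 0.106 and 0.132. Slc12a1 was no longer called without control 1, control 2, dM1/2 1, dM1/2 2 or dM1/2 3 (adjusted p between 0.106 and 0.142, limma).

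The medians of the cell-cycle lists were positive at both ages and larger at P28. The median log2 fold change of the mitosis list was 1.62 at P24 and 3.10 at P28, that of DNA replication 1.12 and 1.87, and that of the replication-dependent histones 1.45 and 3.28. These effects are taken against the controls of each age. In Rrm2, Aurkb, Hist1h3g and Cdc25c the control means were 265, 100, 38.8 and 49.4 at P24 and 102, 24.2, 6.9 and 8.64 at P28. Their dM1/2 means were 1349, 415, 236 and 220 at P24 and 971, 303, 155 and 229 at P28. Only the dM1/2 mean of Cdc25c was thus higher at P28. The difference of the effects passed the test in 0 of 46 mitosis genes, 1 of 44 replication genes (Mcm2) and 6 of 57 tested histone genes. For the DP genes the medians were -0.60 (P24) and -0.93 (P28). With 3 libraries a group, a difference that misses the threshold does not show that the effects were alike.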

How the data were processed

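RNA of YFP-labelled DP cells, sorted by FACS, was depleted of ribosomal RNA and sequenced in single-end reads of 50 bases (NEBNext Ultra Directional). The authors used Trimmomatic for trimming, TopHat 2 for alignment to mm10, HTSeq with Ensembl GRCm38.p4 for counting and DESeq2 for normalization, and the strand setting and the DESeq2 version are not given in the sources used here. The deposited values are a normalized signal, reads per gene divided by a size factor set over all 24 libraries. Dividing by the value of 1 read gave whole reads for 100% of values (tolerance 0.1), so that the depth was recovered. Columns of the authors' own fold changes and p-values were not used.

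P24 dM1/2 and control libraries (3 each) were compared by limma 3.58.1 in R 4.3.3 (trend, two-sided, Benjamini-Hochberg threshold 0.05). Values were log2(normalized reads + 1) of genes whose mean over the 6 libraries reached 10. In any list, a gene can reach this mean through the group in which it is high alone. A difference of effects was fitted over the 12 libraries of P24 and P28. Fold changes on this scale understate those of low genes. Alternatives used edgeR 4.0.16 and DESeq2 1.42.0 on the recovered reads, other filters and single libraries left out. The fits were tested on simulated data. Groups came from the labels. The limma p-values set each difference against the spread between these libraries, with each gene's variance drawn toward a trend over all genes.

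The genes named are Hdac1 to Hdac11, genes the study names for the DP, and up to 5 differences from P28 in each direction. Also named are the 10 largest rises and falls and up to 2 rises and 2 falls per list, all with separated groups. Others are said to be chosen after their values were seen, except Sox2, the called cell type markers and the promoter examples, chosen likewise. Promoters on chromosome 18 were left out, and single genes that this rule also names are not reported here. Members and lists were chosen with earlier results of these data known.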

Additional observations from a re-analysis of the deposited data

Results flagged for a closer look

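In 12 named genes the effect of the ablation differed between P24 and P28 by a test of the difference itself (limma, 12 libraries, adjusted over 14139 genes), and each value is the log2 effect at P24 minus that at P28. It was 3.33 for Wdr86, 2.08 for Nog and -3.83 for Spp1, whose levels are given with the report, and -4.43 for Slc12a1. Cnr1, a cannabinoid receptor, had 15.1, 26.1 and 35.3 normalized reads in P24 controls and 27.6, 10.3 and 7.1 in P24 dM1/2, against 561, 981 and 944 and 14.1, 39 and 29.3 at P28, a difference of 4.07, adjusted p = 0.0379. Lipg, an endothelial lipase, had 139, 129.5 and 121 and 111, 84.5 and 114 at P24 and 724, 872 and 2842 and 90.4, 51.9 and 46.6 at P28 (3.97, adjusted p = 0.0298). Bves had 24.4, 57.2 and 47.2 and 11.6, 15.6 and 20.6 at P24 and 285, 204 and 675 and 11.5, 11.1 and 17.3 at P28 (3.28, adjusted p = 0.0488). In these 3 genes the P28 controls lay above all other groups.

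Celsr1, a planar cell polarity cadherin, was higher in dM1/2 at P24 (40.2, 57.7 and 107 against 280.2, 261 and 181) and lower at P28 (193, 303 and 435 against 137, 76.7 and 138), a difference of 3.26, adjusted p = 0.0332. Pcsk2 was lower in dM1/2 at P24 (341, 348 and 468 against 142, 206 and 175) and higher at P28 (42.6, 11.5 and 25.8 against 185, 231 and 103), and the difference was -3.90, adjusted p = 0.0298. Cntn3, a contactin, had 191, 209 and 257 and 38.2, 93.3 and 45 at P24 and 109.6, 21.8 and 110.4 and 370.1, 689 and 401 at P28 (-4.82, adjusted p = 0.031). Rab3b had 228, 168 and 356 and 207, 165 and 215 at P24 and 35.7, 3.84 and 6.83 and 160.3, 228 and 228 at P28 (-4.49, adjusted p = 0.0411). Cemip, a hyaluronan-binding protein, had 3.1, 6.53 and 14.7 and 9.81, 22.9 and 22 at P24 and 4.35, 5.76 and 3.41 and 231, 319 and 248 at P28 (-4.40, adjusted p = 0.0298). The groups of Rab3b and Cemip overlapped at P24 and not at P28. The difference was called under 15 of 16 alternatives for Wdr86 and Slc12a1 and under 5 to 8 of 16 for the other 10 genes.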

How the results depend on the processing

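Of 3735 genes called at P24, the count was 1565 at an adjusted p-value under 0.01, 1779 with a log2 fold change of at least 1, and between 2057 and 4012 with single libraries left out. It stayed between 3521 and 4704 under the other filters, pseudocount and tools (limma, edgeR, DESeq2). Hdac1 kept its fall in every alternative (log2 fold change -2.18 to -1.75 with single libraries left out), and Hdac2 stayed above 0 and short of the threshold (0.20 to 0.31). Same-numbered P24 libraries did not deviate together (correlations -0.179, 0.043 and -0.401). Deviations within so few libraries constrain each other, so these values cannot decide whether the numbers pair the libraries. The P28 libraries were not checked in this way. With a replicate block the P24 count was 2366 and the count of differences from P28 was 0 (limma, 1362 at an unadjusted p under 0.05). That count, 100 in the report, was 151 with a pseudocount of 10, 103 with edgeR, 595 with DESeq2, and between 8 and 167 with single libraries left out. Of 177 named genes called at P24, none changed direction in any alternative, 173 were called with edgeR (TMM) and 177 with DESeq2, and 128 to 163 with single libraries left out. Genes at 3 reads or fewer in a group give lower bounds of fold. Counting error is a small part of the spread for genes with many reads, and a larger part for genes with few, such as Cdkn2a and Epcam.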

Other observations

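The counts of the lists in this section stand beside 14.8% of all tested genes that rose and 11.8% that fell. Chromatin and epigenetic regulators were called in both directions. Of 25 genes of DNA methylation and Polycomb, 7 rose and 3 fell. Phf19, a Polycomb partner, rose from 88.6, 78.8 and 159.6 to 442, 457 and 536 normalized reads in the 3 libraries of each group, and Cbx7 (123, 118 and 135 against 47.6, 31.2 and 41.6) and Bmi1 (722, 859 and 897 against 438, 511 and 512), subunits of Polycomb complex 1, fell. Of 26 tested imprinted genes, 6 rose and 2 fell. Nnat rose from 51.1, 59.7 and 172 to 1605, 1226 and 1943 (log2 fold change 4.26, standard error 0.43, adjusted p = 0.00139, limma) and Magel2 from 10.4, 1.51 and 3.18 to 61.8, 53.7 and 45, while Plagl1, a zinc finger factor of the imprinted gene network, fell from 2360.5, 3041 and 3028 to 1179, 1287 and 1063, and Sgce also fell (log2 fold change -0.83, adjusted p = 0.0166). Among the Hox clusters, 3 of 29 tested genes rose and 7 fell, with Hoxa9 (169, 184 and 169.5 against 322, 342 and 372) and Hoxc11 (log2 fold change 2.10, adjusted p = 0.0382) higher and Hoxb3 (172, 306 and 176 against 82.5, 57.5 and 51.1) and Hoxd9 (log2 fold change -1.22, adjusted p = 0.0298) lower. Among Hox clusters, the calls numbered 5 without control 2 and 6 without dM1/2 2 or dM1/2 3. Of 21 other tested homeobox genes 3 rose and 3 fell, including rises of Msx2 (561, 608 and 388 against 1316, 1000.5 and 1200.2) and Dlx3 (log2 fold change 1.54, adjusted p = 0.0217) and a fall of Meox1 (log2 fold change -1.46, adjusted p = 0.0384). Among homeobox genes Msx, Alx, Prrx, Dlx and Lhx, the calls numbered 3 without control 2, dM1/2 2 or dM1/2 3. With a single library left out, the calls of Sgce, Hoxc11, Hoxd9, Dlx3 and Meox1 were each lost at least once (adjusted p between 0.0549 and 0.124, limma).

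Of 16 tested genes of retinoid metabolism and response, 2 rose and 5 fell. Aldh1a3, which makes retinoic acid, fell from 1892, 1241 and 1012 to 253, 189 and 304 (log2 fold change -2.45, standard error 0.26, adjusted p = 0.00159, limma) and the retinaldehyde reductase Dhrs3 from 728, 481 and 667 to 274, 216 and 254, while Rdh10 (log2 fold change 0.93, adjusted p = 0.00485) and the binding protein Crabp2 (log2 fold change 0.69, adjusted p = 0.00859) rose. Ribosomal protein genes had positive log2 fold changes in 78 of 78 cases, of which 17 rose past the threshold (median 0.49), led by Rpsa (log2 fold change 1.08, adjusted p = 0.014) and Rps19 (log2 fold change 1.0, adjusted p = 0.009). Among ribosomal proteins, the calls numbered 1 without control 2, 4 without control 3, dM1/2 2 or dM1/2 3 and 6 without dM1/2 1. Pseudogene copies of these genes make single values uncertain. Of 78 tested genes of the respiratory chain 4 rose and 0 fell, with Cox6b2 (181, 155 and 245 against 634, 702 and 935) and Uqcrfs1 (log2 fold change 0.70, adjusted p = 0.0257) highest. Among respiratory chain genes, the calls numbered 1 without control 2 and 2 without control 3, dM1/2 1, dM1/2 2 or dM1/2 3. Glycolysis gave 8 rises and 0 falls among 23 genes, such as Aldoc (6.58, 10 and 10.7 against 32.7, 73.5 and 76.4) and Pfkp (494, 418 and 437 against 1057, 999 and 922). Among glycolysis genes, the calls numbered 4 without control 2 or dM1/2 1 and 5 without dM1/2 3. Cholesterol synthesis gave 6 falls and 0 rises among 24, led by Msmo1 (log2 fold change -1.36, adjusted p = 0.00909) and Idi1 (log2 fold change -1.38, adjusted p = 0.0248). Among genes of cholesterol synthesis, the calls numbered 1 without control 2, 3 without dM1/2 2 and 2 without dM1/2 3. Rpsa was no longer called without control 2, Uqcrfs1 was no longer called without control 2 or dM1/2 2 and Idi1 was no longer called without control 2, dM1/2 2 or dM1/2 3 (adjusted p between 0.0519 and 0.0829, limma).

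Of 33 tested enzymes of O-glycosylation and sialylation, 1 rose (Galnt12, 92.5, 71.3 and 46.4 against 226, 188 and 252) and 8 fell, with Galntl6 (log2 fold change -3.34, adjusted p = 0.0171) next to Galnt13. Among 21 circadian clock genes, 2 rose and 3 fell, with Bhlhe40 (log2 fold change 0.45, adjusted p = 0.0409) among those higher and Per3 (log2 fold change -0.94, adjusted p = 0.00835) and Tef (log2 fold change -0.75, adjusted p = 0.00987) among those lower. Among clock genes, the calls numbered 3 without control 2, control 3, dM1/2 2 or dM1/2 3. Of 23 immediate early genes, which also respond to the handling of cells, 4 fell and 0 rose, led by Nr4a1 (log2 fold change -1.21, adjusted p = 0.017) and Zfp36 (log2 fold change -1.20, adjusted p = 0.00383). Among AP-1 and Egr immediate early genes, the calls numbered 7 without control 1, 1 without control 2 or dM1/2 2 and 2 without dM1/2 3. Of 33 tested interferon and antigen presentation genes 3 rose, H2-K1 (2950.5, 3569 and 3053 against 5058, 7421 and 8584) and Tap1 (log2 fold change 0.76, adjusted p = 0.0169) among them, and 2 fell, Gbp2 (log2 fold change -1.19, adjusted p = 0.0113) and Irf9 (log2 fold change -0.84, adjusted p = 0.0459). The median of this list was 0.11 with limma and -0.07 with edgeR. Among interferon-stimulated and antigen presentation genes, the calls numbered 2 without control 2, dM1/2 2 or dM1/2 3 and 3 without dM1/2 1. Of 22 genes of the unfolded protein response 4 rose, led by Sdf2l1 (log2 fold change 1.57, adjusted p = 0.0165) and Pdia6 (log2 fold change 0.60, adjusted p = 0.0484), and 2 fell, Ppp1r15a (log2 fold change -0.74, adjusted p = 0.0444) and Ero1l (log2 fold change -0.70, adjusted p = 0.0207). Among genes of this response, the calls numbered 1 without control 2, 3 without dM1/2 1 or dM1/2 2 and 0 without dM1/2 3. With a single library left out, the calls of Galntl6, Bhlhe40, Nr4a1, Tap1, Irf9, Sdf2l1, Pdia6, Ppp1r15a and Ero1l were each lost at least once (adjusted p between 0.0502 and 0.143, limma).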
